A study of Rattus norvegicus with 458 samples.

Results

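The 5 miRNAs described here are miR-99a-5p, miR-99b-5p, miR-100-5p, miR-125a-5p and miR-125b-5p, the 5-prime arms of the miR-99/100 and miR-125 families, in a small RNA sequencing atlas of naïve Sprague Dawley rats. The rule picks them by name: 11 of the 7534 names in the table of miRNA counts carried one of them. Of these 11 names, 5 were the single names, which held 99.8% of the 11 names' counts, 2 were composite names in which a member shared its reads with another miRNA, and 4 were composite names of more than 1 member. Together the 11 names took 1.65% of all counts. All 5 single names passed the filter on low counts, which 1641 names passed.

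The rats were untreated, 12 to 13 weeks old and of both sexes, and 23 tissues were sequenced in 215 libraries. For 19 tissues there was 1 library from each of 10 rats, numbered 2 to 6 (male) and 7 to 11 (female). Testis came from the 5 males, and ovary and uterus from the 5 females. Dorsal root ganglion came as 10 technical libraries of 2 pools, 1 male and 1 female, which were summed per pool for the tests, so that this tissue had 2 units and no rat of its own. According to the study's methods its RNA was supplied by a company, Takeda, while the other tissues were taken at necropsy of the rats above, so that dorsal root ganglion and the source of its RNA cannot be told apart. No rat was treated, so each comparison below is between tissues or between sexes of naïve rats.

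miRNAs are short RNAs that guide a silencing complex to messenger RNAs, mostly by pairing through bases 2 to 8, the seed. The miR-125 family is the vertebrate counterpart of lin-4, the first miRNA to be described, and miR-99 and miR-100 belong to one of the oldest animal miRNA families. In vertebrate genomes both families lie side by side, with a member of the let-7 family between or beside them, in 3 clusters: miR-99b, let-7e and miR-125a, then miR-100, let-7a and miR-125b-1, then miR-99a, let-7c and miR-125b-2. These clusters are known in blood stem cells, in muscle and in the developing nervous system, where miR-125 and let-7 act on the timing of differentiation.

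The sequences are given because the count of each miRNA rests on a few bases. Shown is the most counted sequence under each name in the deposited files, 5′ to 3′, with the seed in capitals.
miR-99a-5p: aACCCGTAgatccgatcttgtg
miR-100-5p: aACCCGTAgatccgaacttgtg
miR-99b-5p: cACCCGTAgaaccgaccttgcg
miR-125a-5p: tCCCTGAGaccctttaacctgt
miR-125b-5p: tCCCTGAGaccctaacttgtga
The first 3 shared 1 seed and the last 2 another. miR-100-5p and miR-99a-5p differed at 1 of 22 positions, A16T, counted from the 5-prime end with the base of miR-100-5p first. miR-99a-5p and miR-99b-5p differed at 4 positions (A1C, T11A, T16C and T21C), and miR-125a-5p and miR-125b-5p at 7, none of them in the seed. The shown form held 51.0% of the reads of miR-99a-5p, 44.5% of miR-99b-5p, 47.3% of miR-100-5p, 53.5% of miR-125a-5p and 44.0% of miR-125b-5p. The next form of miR-125a-5p, 24 bases long, held 15.4%.

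One name, miR-100-5p;miR-99a-5p, collected 28150 counts that the authors' mapping could not give to either miRNA, and was left out of both. Its most counted sequence, 91.0% of these counts, is shown because it carries the base of miR-100-5p at position 16 and 1 more base at its 3-prime end.
miR-100-5p;miR-99a-5p: aACCCGTAgatccgaacttgtgg

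The mature miR-125b-5p is the same at both of its loci, so that only its 3-prime arms tell them apart. They are shown with bases 2 to 8 in capitals.
miR-125b-1-3p: aCGGGTTAggctcttgggagct
miR-125b-2-3p: aCAAGTCAggctcttgggacct
Another miRNA with the seed of miR-125, miR-351-5p (tCCCTGAGgagccctttgagcct), lies on the X chromosome. miR-99a-5p was matched to no mature entry and is not among the following counts. In the RefSeq annotation of the rat genome build GRCr8, the seed of miR-99/100 was at bases 2 to 8 of 2 of 724 mature miRNAs (miR-100-5p and miR-99b-5p), and that of miR-125 of 3 (miR-125a-5p, miR-125b-5p and miR-351-5p).

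In the same build, all on the plus strand, the miR-99b hairpin lies at chr1:67350064-67350133, let-7e at chr1:67350229-67350321 and miR-125a at chr1:67350675-67350759, with 541 bases between the miR-99b and miR-125a hairpins. miR-100 lies at chr8:50798295-50798374 and miR-125b-1 at chr8:50850036-50850122, which leaves 51661 bases between them. On chromosome 11, miR-99a lies at chr11:29687392-29687472, let-7c at chr11:29688112-29688205 and the mature miR-125b-5p of miR-125b-2 at chr11:29732588-29732609, 45115 bases downstream of miR-99a.

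Library totals ranged from 376401 to 17725805 counts (median 4816409) and were lowest in testis (376401 to 653651). The unit of a level, CPM, is how many of every 1000000 miRNA counts of a library fell on that miRNA. The 5 miRNAs are of nearly the same length, so no length correction was made. Each miRNA ligates to the adapters with its own efficiency, which was not measured here, so that levels and shares of unlike miRNAs are shares of counts rather than amounts, and are read across tissues. The tissues matched their markers: miR-122-5p was highest in liver, miR-133a-3p in biceps femoris, miR-208a-3p in heart, miR-216a-5p in pancreas, miR-34c-5p in testis and miR-183-5p in dorsal root ganglion, and all 16 markers measured were highest in a tissue of their label. In 10 libraries, however, the profile without the members correlated better with another tissue than with the labelled one, by over 0.05. These were adrenal of rat 8, duodenum of rats 2, 4, 7 and 11, hippocampus of rats 2, 6 and 7, ovary of rat 11 and uterus of rat 8. miR-124-3p, a neuronal miRNA, stood at 4113 to 5627 CPM in duodenum of rats 2, 4 and 7 and at 0.57 to 4.0 CPM in hippocampus of rats 2, 6 and 7. The 10 libraries stayed in the main values under their labels, and values for the libraries in place are given beside some of the results. For testis, ovary and all miRNAs other than the members, fitted differences from gut, which includes duodenum, are given under the labels only.

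miR-125a-5p was the most counted member (6473815 counts) and was highest in cerebellum, at 25758 CPM in the lowest rat, 33239 in the median and 38586 in the highest (mean 33342 ± 4161, SD, n = 10). Cerebrum followed at 15660 ± 1846 CPM and brainstem at 12255 ± 2199. Hippocampus measured 10770 ± 5538 CPM under its labels and 13978 ± 2194 over its 7 libraries in place. The 10 cerebellum libraries all lay above every cerebrum library (highest 18955 CPM). Outside the brain, miR-125a-5p was at 6712 CPM in adrenal, 6415 in kidney medulla and 5388 ± 1533 in testis (n = 5). It was low in liver (1660 ± 278), pancreas (1619 ± 222), ileum (1394 ± 375) and jejunum (1046 ± 139), and lowest in whole blood, with a median of 15.8 CPM (8.29 to 148).

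miR-99b-5p, its neighbour on chromosome 1 (5778529 counts), was also highest in cerebellum, with 15316 CPM in the lowest rat, 17834 in the median and 22603 in the highest (mean 17789 ± 2300). It stood at 10803 CPM in dorsal root ganglion (SD 1707 over technical libraries, pools at 11237 male and 9740 female). Brainstem (10710 ± 1419) and cerebrum (10424 ± 1683) did not differ beyond their spread. Adrenal came close to these tissues with 9423 ± 2891 CPM, and 10270 ± 1155 over the 9 libraries in place. The 3 kidney samples (medulla, cortex and homogenate) lay between 6611 and 7177 CPM. miR-99b-5p measured 1464 ± 212 CPM in liver, 1376 ± 312 in pancreas, 964 ± 144 in jejunum and a median of 18.9 in whole blood (13.3 to 135).

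miR-125b-5p (3061488 counts) had another order among the brain regions. Cerebrum (9330, 10284 and 12770 CPM for the lowest, median and highest rat) and brainstem (mean 10418 ± 925) were alike. Dorsal root ganglion measured 9022 ± 1453 CPM (SD over technical libraries), and cerebellum only 4917 ± 529. No cerebellum library reached the lowest cerebrum library. Hippocampus was at 8417 CPM under its labels and at 11296 ± 842 over the libraries in place. Among other tissues it measured 3819 ± 790 CPM in testis, 2913 ± 152 in heart, 1309 ± 254 in liver, 481 ± 88.1 in ileum and 355 ± 61.8 in jejunum, and its median in whole blood was 3.53 CPM.

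miR-100-5p (1110957 counts) and miR-99a-5p (849778 counts) were highest in dorsal root ganglion. There miR-100-5p measured 3874, 5020 and 6882 CPM in the lowest, median and highest technical library, and 5506 and 4426 CPM in the male and female pool. Testis was next, with 5292, 5669, 3485, 4750 and 3795 CPM in rats 2 to 6, and its range lay within that of brainstem. miR-100-5p stood at 4342 ± 902 CPM in brainstem and 2892 ± 445 in cerebrum. It was low in liver (197 ± 50.2), pancreas (193 ± 61.8) and jejunum (190 ± 32.4), which did not differ beyond their spread.

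miR-99a-5p measured 2953, 4286 and 5346 CPM in the lowest, median and highest dorsal root ganglion library, above every library of the next tissue, hippocampus (mean 1843, and 2306 over the libraries in place). Its pools stood at 4330 (male) and 3700 CPM (female). Unlike miR-100-5p, miR-99a-5p was not low in pancreas (1066 ± 184 CPM) or liver (813 ± 263), both close to heart (1072 ± 141) and cerebellum (1089 ± 105). It was low in ileum (median 95.4, 69.7 to 115) and jejunum (76.4 ± 15.9), and its median in whole blood was 1.83 CPM.

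Counted together, the members took 5.88% of all counts in cerebellum, or 58816 CPM, against 40874 CPM in cerebrum, 39316 in brainstem, 34644 in dorsal root ganglion, 2631 in jejunum and 79.8 in whole blood. The whole blood mean was drawn up by 1 library: the median was 42.8 CPM (25.2 to 433), and without rat 6 the mean was 40.6 (highest 61.2, n = 9). In bulk tissue, fewer cells that express a miRNA and less of it per cell cannot be told apart. In whole blood, the erythroid name miR-3107-5p;miR-486-5p alone took 85.2% of counts (79.6% to 90.3%), which lowers the CPM of all other names there. The median whole blood library still held 120 counts of miR-99b-5p and 95 of miR-125a-5p, but only 21.5 of miR-125b-5p, 11 of miR-99a-5p and 6.5 of miR-100-5p. Of the 22 steps between neighbouring tissues in the order of mean CPM, the gap was larger than 1 SD in 4 for miR-100-5p, 5 for miR-99b-5p and miR-125a-5p, 6 for miR-99a-5p and 9 for miR-125b-5p. For dorsal root ganglion the SD in these steps was over technical libraries, not over rats.

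**Figure D1:**
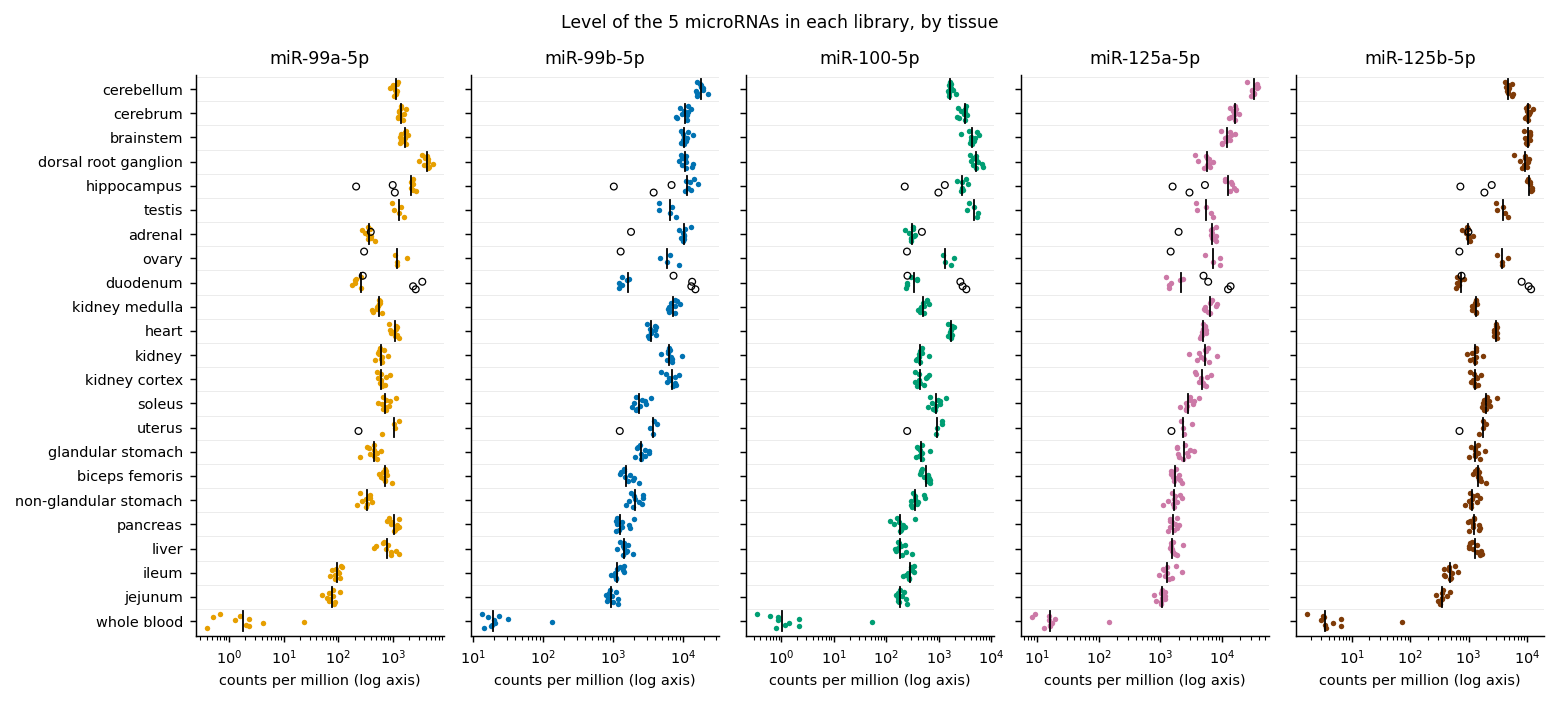
Level of each miRNA in every library, in CPM on a log axis, by tissue. Each point is 1 library, the black bar is the tissue median, and open circles are the 10 libraries whose profile was closer to another tissue. Whole blood lies lowest for all 5 miRNAs, cerebellum highest for miR-125a-5p and miR-99b-5p, and dorsal root ganglion highest for miR-99a-5p and miR-100-5p.

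Nervous tissue (cerebrum, cerebellum, brainstem, hippocampus and dorsal root ganglion, weighted equally) was then compared with gut (duodenum, jejunum and ileum), liver and whole blood in one edgeR quasi-likelihood fit over all tissues with upper quartile scaling, and p-values were adjusted by Benjamini-Hochberg over the 1641 names. The comparisons share the nervous tissue libraries, so their values are given side by side. All 5 members were higher than in gut, where 21.4% of all names were called higher and 41.0% lower. miR-125b-5p was 3.34-fold higher (log2 difference 1.74 ± 0.16 SE, adjusted p = 3.189e-20) and miR-99a-5p 3.29-fold (1.72 ± 0.16). miR-100-5p (2.63-fold, SE 0.18 on the log2 scale), miR-125a-5p (2.17-fold, SE 0.14) and miR-99b-5p (2.02-fold, SE 0.14) followed. Without the 10 libraries out of place the 5 differences were larger, between 1.28 and 2.09 on the log2 scale. The median of all names in this comparison was -0.66, and -0.27 with TMM scaling, under which all 5 members were again higher (1.44 to 2.13) and the calls over all names split 428 higher to 530 lower in place of 351 to 673.

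Against liver, 4 members were higher in nervous tissue and miR-99a-5p was lower, where 18.9% of names were called higher and 42.7% lower. miR-100-5p had the largest difference (4.63-fold, 2.21 ± 0.29, adjusted p = 7.871e-12), then miR-99b-5p (1.29 ± 0.21), miR-125a-5p (1.24 ± 0.22) and miR-125b-5p (0.92 ± 0.24). miR-99a-5p differed by -0.54 ± 0.22 (edgeR adjusted p = 0.02628), the one member with this direction. The direction depended on the scaling: it was 0.56 with TMM (adjusted p = 0.05161) and 0.99 with DESeq2 (adjusted p = 3.651e-06). Under each of these 3, miR-99a-5p lay above the median of all names, which was -0.78, 0.03 and 0.16. The calls over all names split 310 higher to 701 lower, 401 to 428 with TMM and 446 to 282 with DESeq2. The call was also lost without rat 3, rat 6 or rat 11, and without either dorsal root ganglion pool.

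Against whole blood all 5 members were higher in nervous tissue, by 25.0-fold for miR-99b-5p, 32.2-fold for miR-125a-5p, 32.7-fold for miR-99a-5p, 38.8-fold for miR-100-5p and 54.4-fold for miR-125b-5p, with SEs of 0.27 to 0.36 on the log2 scale. The size of these differences rested on whole blood of rat 6: with that rat left out of all tissues they were 32.5-fold for miR-99b-5p, 46.9-fold for miR-125a-5p, 54.6-fold for miR-99a-5p, 125.3-fold for miR-100-5p and 101-fold for miR-125b-5p, and all 5 were again called higher. Here 20% of all names were called higher and 41.6% lower (328 to 682, against 494 to 315 with TMM). Set against the equal-weight mean of gut, liver and blood, the 5 differences were 2.07 for miR-99a-5p, 2.32 for miR-99b-5p, 2.46 for miR-125a-5p, 2.81 for miR-125b-5p and 2.96 for miR-100-5p, all called higher as were 19.9% of names, with 42.0% lower (327 higher to 690 lower, against 463 to 381 with TMM).

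The gonads were compared in the same way, testis and ovary each for itself. In testis, miR-100-5p was 3.00-fold higher than in gut (1.58 ± 0.30, adjusted p = 1.728e-06) and miR-99a-5p 1.71-fold (0.78 ± 0.28, adjusted p = 0.01858), where 16.9% of names were called higher and 19.1% lower. miR-125b-5p (0.23 ± 0.29), miR-99b-5p (-0.32 ± 0.27) and miR-125a-5p (-0.58 ± 0.28) did not pass the threshold. The call of miR-99a-5p was lost without rat 5 and without either dorsal root ganglion pool, and with both parts of the stomach added to gut its difference was -0.09.

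Against liver, testis had more miR-100-5p (5.28-fold, 2.40 ± 0.36, adjusted p = 3.905e-09) and less miR-99a-5p (-1.48 ± 0.36, adjusted p = 0.0002551), while 18.6% of names were called higher and 20.1% lower. The 5 testis libraries held 1569, 1299, 1048, 1392 and 963 CPM of miR-99a-5p in rats 2 to 6, above the liver mean of 813, and the sign of the fitted difference turned with DESeq2. It lay below the median of all names under each scaling: -1.48 against -0.35 in the main fit, -0.61 against 0.01 with TMM, and 0.36 against 1.44 with DESeq2. miR-99b-5p (-0.05 ± 0.30), miR-125a-5p (-0.46 ± 0.31) and miR-125b-5p (-0.59 ± 0.34) were not called. With DESeq2 these 3 were called higher, at 1.80, 1.42 and 1.27, and the split of all names went from 305 higher and 330 lower to 417 and 144 (378 and 229 with TMM). Against whole blood all 5 were higher in testis, between 3.30 (miR-99b-5p) and 5.47 (miR-100-5p) on the log2 scale, and between 3.92 and 7.37 for the same pair without rat 6, in a comparison with 20.6% of names called higher and 22.6% lower.

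In ovary all 5 members were higher than in gut, where 15.7% of names were called higher and 10.1% lower (258 to 166, against 137 to 209 with DESeq2). miR-99a-5p had the largest difference (4.19-fold, 2.07 ± 0.25, adjusted p = 1.817e-12). It stood at 1186, 1200, 1797 and 1112 CPM in rats 7 to 10 and at 298 CPM in rat 11, the library out of place. miR-125b-5p (1.43 ± 0.26), miR-100-5p (1.18 ± 0.30), miR-125a-5p (1.14 ± 0.24) and miR-99b-5p (0.85 ± 0.24) were between 1.81-fold and 2.69-fold higher. Without rat 9, or with both parts of the stomach added to gut, 3 members were called.

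Compared with liver, ovary had more miR-100-5p (2.00 ± 0.36), miR-125a-5p (1.26 ± 0.29) and miR-99b-5p (1.13 ± 0.29), as had 18.2% of names, with 16.3% lower (298 higher to 268 lower, against 389 to 144 with TMM). miR-125b-5p did not pass (0.61 ± 0.33, adjusted p = 0.141), though it did over the libraries in place (0.80, adjusted p = 0.02353), with rat as a block and dorsal root ganglion left out (0.81, adjusted p = 0.02846) and with TMM and DESeq2. miR-99a-5p differed by -0.19 ± 0.34 (adjusted p = 0.7444), and by 0.45 with TMM (adjusted p = 0.375). Against whole blood all 5 were higher in ovary, by 4.48 to 5.46 on the log2 scale, or 4.77 to 6.67 without rat 6, where 20.7% of names were called higher and 21.8% lower. Set against the equal-weight mean of gut, liver and blood, all 5 were called higher in ovary (2.15 to 2.75, with 19.1% of names higher and 12.0% lower) and in testis (0.75 to 3.15, with 18.9% higher and 18.8% lower).

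**Figure D2:**
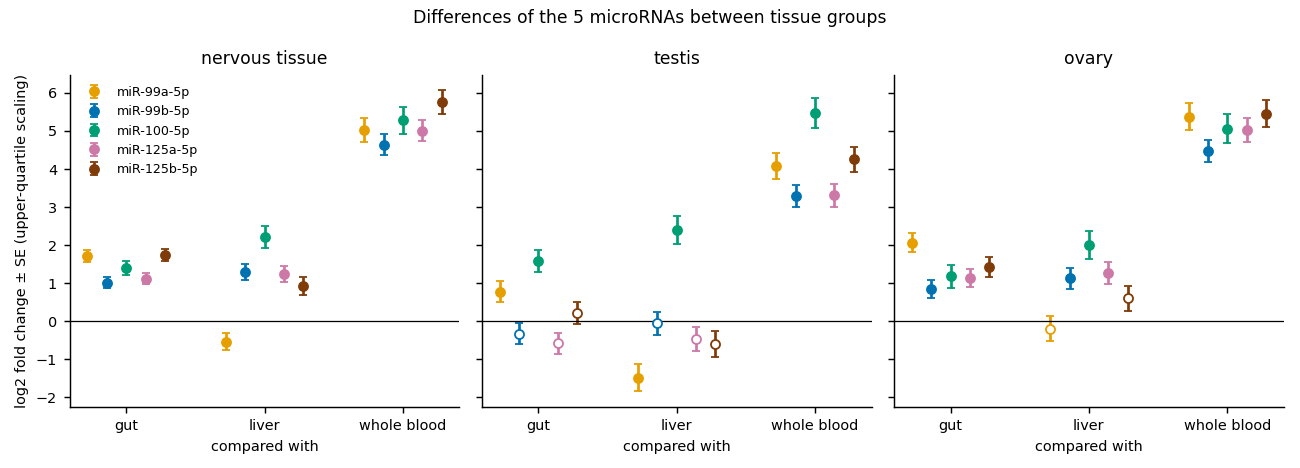
Log2 difference of each miRNA between nervous tissue, testis or ovary and gut, liver or whole blood, from the edgeR fit with upper quartile scaling. Bars are standard errors, filled points passed an adjusted p of 0.05 and open points did not. The differences from whole blood lie between 3.30 and 5.77 with rat 6 included, and those of miR-99a-5p from liver lie below 0 in all 3 tissue groups with this scaling, whereas with DESeq2 they were 0.99, 0.36 and 0.69.

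Each tissue was also set against the mean of the other 22. Of the 115 pairs of member and tissue, 49 were called higher, 28 lower and 38 neither, where 23.4% of all pairs of name and tissue were called higher and 11.3% lower. All 5 members were higher in heart, hippocampus, non-glandular stomach and uterus, and all 5 lower in jejunum and whole blood. With TMM scaling 4 were called higher in heart, 5 in hippocampus, 5 in non-glandular stomach and 3 in uterus, and with DESeq2 3, 5, 5 and 4. Cerebrum had 3 members called higher in the main fit, 4 with TMM and 5 with DESeq2. Brainstem had 2, 4 and 5. By the members' summed level, cerebrum ranked 2 of the 23 tissues, brainstem 3, heart 11 and uterus 15 (8900 CPM). In non-glandular stomach the differences were 0.77 to 1.32 on the log2 scale (0.53 to 1.07 with TMM), yet the members' summed level there was 5699 CPM, the 18th of the 23 tissues. miR-143-3p alone stood at 840799 CPM in that tissue, so that a difference on the fitted scale is not one in CPM. Members were called in both directions in liver, pancreas, adrenal and testis only. Liver had more miR-99a-5p (0.86 ± 0.18) and less miR-99b-5p (-0.94 ± 0.19), miR-100-5p (-1.46 ± 0.26) and miR-125a-5p (-0.72 ± 0.19). The call of miR-99a-5p in liver was lost with TMM (0.25) and DESeq2 (-0.14), where it lay above the median of all names (-0.36 and -0.84). Pancreas was of the same kind, with miR-99a-5p at 1.09 ± 0.18 and miR-100-5p at -1.72 ± 0.27, both also called with TMM and DESeq2. The RNA of pancreas had the lowest RNA integrity numbers (4.9 to 6.8), whose part in this was not tested.

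Adrenal showed the other split: miR-99b-5p (1.23 ± 0.15) and miR-125a-5p (0.73 ± 0.17), the pair on chromosome 1, were higher, and miR-99a-5p (-0.94 ± 0.22), miR-100-5p (-1.36 ± 0.26) and miR-125b-5p (-1.09 ± 0.22) lower. In cerebellum the same pair led, miR-125a-5p at 2.35 ± 0.14 and miR-99b-5p at 1.37 ± 0.15. In dorsal root ganglion it was not called, and miR-100-5p (1.81 ± 0.39), miR-99a-5p (1.69 ± 0.35) and miR-125b-5p (1.28 ± 0.37) were higher. Testis had more miR-100-5p (1.05 ± 0.28) and less miR-125a-5p (-1.20 ± 0.28) and miR-99b-5p (adjusted p = 0.001202), of which only miR-100-5p was called with DESeq2. No member was called in duodenum, whose 4 libraries out of place are of 10.

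Shares within a library do not depend on the scaling, and show which of the 3 loci the seed of miR-99/100 came from. Of the counts on miR-99a-5p, miR-99b-5p and miR-100-5p, miR-99b-5p held the largest mean share in all 23 tissues, from 50.9% in testis to 91.2% in adrenal (93.9% in place). The share of miR-99a-5p was highest in pancreas (40.7% ± 3.2) and liver (32.3% ± 5.9), then biceps femoris (24.6%), and lowest in adrenal (4.49%) and cerebellum (5.38%). That of miR-100-5p was highest in testis (38.6% ± 2.7, lowest rat 35.8%), followed by heart (26.5%), brainstem (25.9%) and dorsal root ganglion (25.4%). Of the counts on miR-125a-5p and miR-125b-5p, miR-125a-5p held 87.0% in cerebellum and 85.9% in adrenal but 53.8% in brainstem and 38.2% in dorsal root ganglion.

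The shares were tested for brain (the mean of 4 regions in each of 10 rats) by an exact sign-flip permutation test, and for testis and ovary (5 rats each against 10) by an exact permutation test, all two-sided, with Benjamini-Hochberg adjustment over 36 tests. Of the 36, 32 passed (88.9%), and in 16 the ranges of the 2 groups did not overlap. The 5 rats of testis or ovary were also among the 10 rats of the other group, and the exact permutation test did not pair them by rat. Testis came from males and ovary from females, while those 10 rats were of both sexes. In liver the share of miR-99a-5p was 27.65% in females and 36.96% in males. The part of sex in the testis and ovary differences was not tested. This holds for the other exact permutation tests of testis and ovary below too. The 36 tests are not independent. The shares of miR-99a-5p, miR-99b-5p and miR-100-5p add up to the whole in each library, and the tests reuse the same groups. The same 32 passed without the libraries out of place. Dorsal root ganglion, with 2 pools, was not tested.

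Brain and liver differed in every share in 10 of 10 rats. miR-99a-5p held 22.8 percentage points less in brain, and miR-99b-5p 13.3, miR-100-5p 9.46 and miR-125a-5p 8.73 points more (exact sign-flip permutation test, adjusted p = 0.004136 for each). Brain and gut lay much closer. miR-99a-5p held 9.56% ± 0.94 in brain and 8.00% ± 1.45 in gut (exact sign-flip permutation test, adjusted p = 0.01758, higher in 9 of 10 rats), and with both parts of the stomach added to gut the difference was -0.04 points (adjusted p = 0.9395). miR-125a-5p held 64.8% of its family in brain and 71.5% in gut, or 73.6% in gut over the libraries in place. Against whole blood, brain had a smaller share of miR-99b-5p (73.0% against 85.3%) and a larger one of miR-100-5p (17.4% against 7.06%), while that of miR-99a-5p did not pass (exact sign-flip permutation test, adjusted p = 0.2192).

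In testis the share of miR-100-5p was apart from gut (15.8%), liver (7.95%) and whole blood (7.06%), with no overlap of ranges and an adjusted p of 0.000999 in each exact permutation test. miR-99b-5p was lower than in all 3 (76.2%, 59.7% and 85.3%). The share of miR-99a-5p in testis, 10.5% ± 0.7, was above that of gut and below that of liver. Ovary differed from testis in this: its miR-100-5p share of 16.0% was close to that of gut (exact permutation test, adjusted p = 0.8944), and its miR-99a-5p share of 14.9% was above that of gut and whole blood (adjusted p = 0.000999 and 0.01154) and below that of liver. The direct difference between testis and ovary was not tested.

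**Figure D3:**
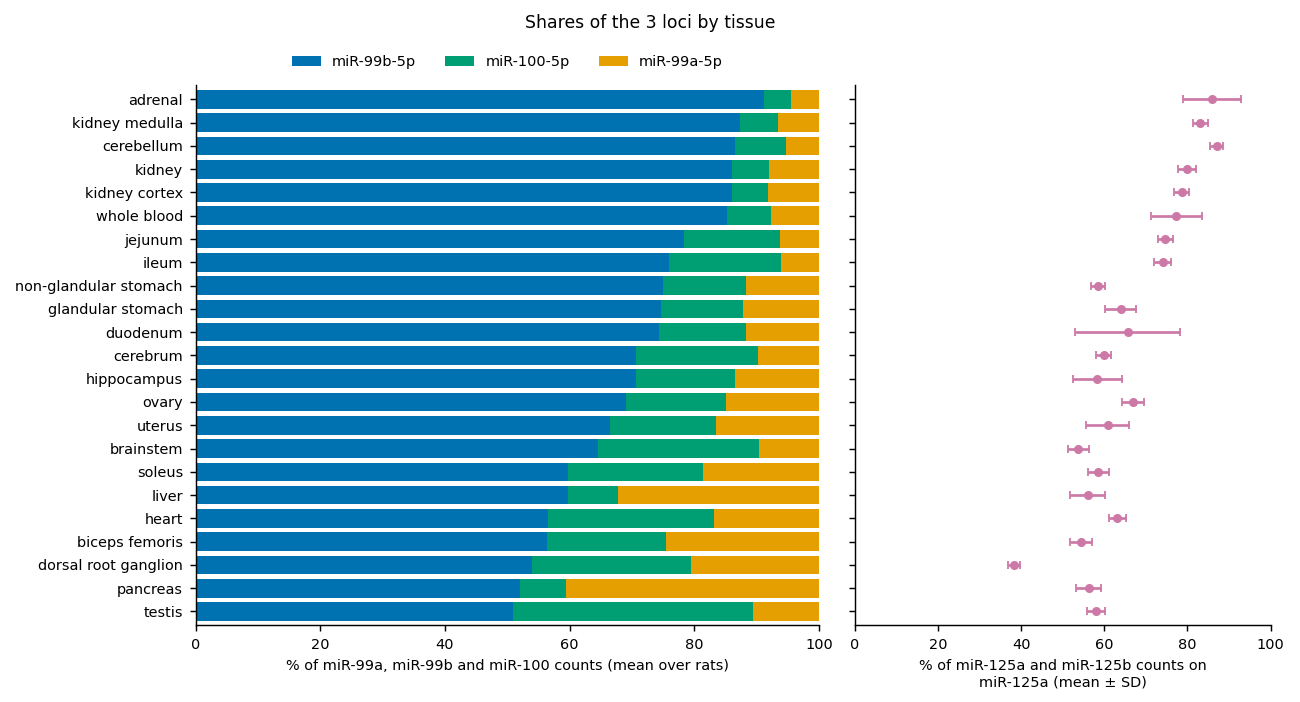
Mean share of miR-99a-5p, miR-99b-5p and miR-100-5p in their summed counts, stacked for each tissue, and beside it the share of miR-125a-5p in the counts of miR-125a-5p and miR-125b-5p (mean ± SD over libraries, or over 2 pools for dorsal root ganglion), in percent. miR-99a-5p takes its largest shares in pancreas and liver, miR-100-5p in testis, and miR-99b-5p in adrenal.

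The 3-prime arms gave a second view of the loci. They are the strand that is mostly discarded: of the counts on both arms they made up 0.09% for miR-125a, 0.16% for miR-100, 0.30% for miR-99b and 4.39% for miR-99a, but 13.4% for miR-125b, whose 2 loci were summed. Of the counts on the 3-prime arms of miR-125b, miR-125b-1-3p, the arm from the locus of miR-100, held 29.9% in dorsal root ganglion, 24.7% in ileum, 24.0% in jejunum, 21.3% in brainstem and 20.6% in testis. It held 2.89% in liver, 3.82% in pancreas and 5.87% in heart, so that miR-125b-2-3p, the arm from the locus of miR-99a, was the more counted in every tissue. Whole blood had at least 20 counts of both arms together in only 2 rats and was not tested.

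Brain (15.4%) was below gut (22.1%) in 10 of 10 rats and above liver in 10 of 10 (exact sign-flip permutation test, adjusted p = 0.00293 for each). Over the libraries in place, brain held 15.3% and gut 23.3%. Testis and ovary (19.9%) were above liver (exact permutation test, adjusted p = 0.000999 for each) and did not pass against gut (adjusted p = 0.4362 and 0.424). Thus 4 of 6 tests passed, and 2 with the first flow cell alone.

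Across the 23 tissues the share of miR-100-5p in the counts of miR-100-5p and miR-99a-5p went with the share of miR-125b-1-3p (Pearson r = 0.69, Spearman rho = 0.75), and the share of miR-99b-5p with that of miR-125a-5p (r = 0.87, rho = 0.88). Without brain and dorsal root ganglion, r was 0.76 and 0.90 over 18 tissues. These are descriptions, since tissues share rats and sequencing runs. Heart stands off the first relation, with 61.1% on miR-100-5p and 5.87% on miR-125b-1-3p.

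**Figure D4:**
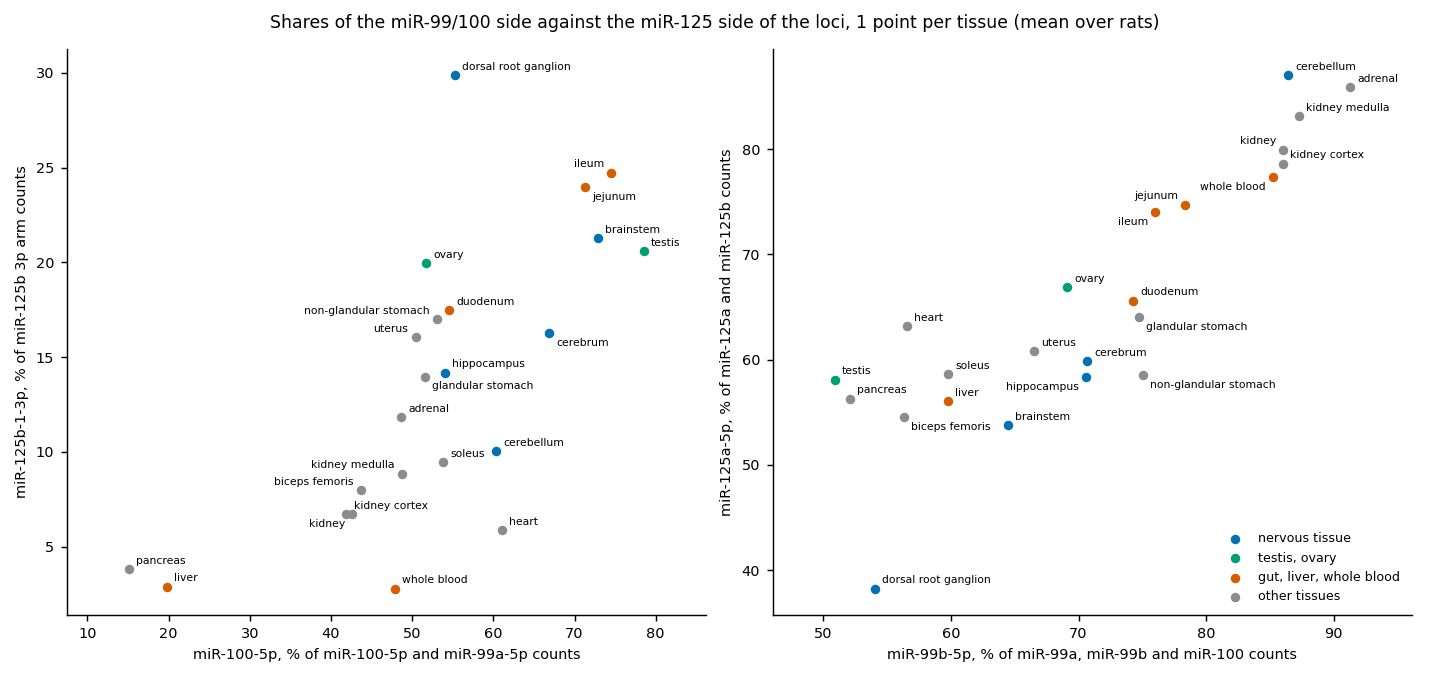
Shares of neighbouring miRNAs across tissues, 1 point per tissue (mean over libraries), coloured by tissue group. One panel sets the share of miR-100-5p in miR-100-5p and miR-99a-5p against that of miR-125b-1-3p in the miR-125b 3-prime arms, and the other the share of miR-99b-5p against that of miR-125a-5p, in percent, with r = 0.69 and 0.87.

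The let-7 miRNAs of the 3 clusters did not move with the members everywhere. In nervous tissue against gut all 3 (let-7e-5p, let-7c-5p and let-7a-5p) were higher, by 1.01, 0.83 and 0.48 on the log2 scale. Against liver, let-7e-5p was higher (1.13), let-7a-5p lower (-1.37) and let-7c-5p not called (0.30, adjusted p = 0.09569). With TMM and DESeq2, let-7e-5p was again higher than in liver, let-7a-5p was not called (-0.23 and 0.21) and let-7c-5p was called higher (1.44 and 1.88). In testis all 3 were lower than in gut (-1.46, -1.01 and -0.98) and than in liver, although with DESeq2 only let-7e-5p was lower than in gut, and it was higher than in liver (0.54). let-7a-5p and let-7c-5p have other loci or close relatives, so that their counts are not of the cluster alone. Of 6 other let-7 miRNAs, 5 were higher in nervous tissue than in gut, and 6 of 6 were lower in testis than in gut and in liver, although with DESeq2 let-7b-5p was higher than in liver (0.52).

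The 6 listed 3-prime arms of the members were all higher in nervous tissue than in gut and in whole blood. Against liver, miR-125b-1-3p was higher by 3.69 ± 0.30, against 0.83 ± 0.23 for miR-125b-2-3p, and both were again higher with TMM and DESeq2. miR-99a-3p was lower (-0.82 ± 0.23), but its direction turned with the scaling, at 0.31 with TMM (adjusted p = 0.3391) and 0.73 with DESeq2 (adjusted p = 0.0005057). In testis against liver, miR-100-3p (3.12) and miR-125b-1-3p (1.59) were higher and miR-99a-3p (-2.32) and miR-125b-2-3p (-1.59) lower. The first 2 were also higher with TMM and DESeq2, whereas miR-99a-3p stood at -1.42 with TMM and was not called with DESeq2 (-0.47), and miR-125b-2-3p was called with neither (-0.70 and 0.30). miR-351-5p, which shares the seed of miR-125, was higher in ovary than in gut (4.59 ± 0.41) and in testis than in gut (1.46 ± 0.46), and not called in nervous tissue (0.56, adjusted p = 0.07485). miR-10a-5p and miR-10b-5p, kin of miR-99/100 by sequence, were both lower in nervous tissue than in gut (-4.96 and -2.76). Against liver miR-10a-5p was lower (-4.43) and miR-10b-5p higher (1.82, adjusted p = 0.007575), and against whole blood miR-10b-5p was higher (1.63, adjusted p = 0.01646) and miR-10a-5p not called (0.97, adjusted p = 0.07654).

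Among 775 names with at least 10 CPM in some tissue, those most like each member were sought by the Pearson correlation of log2(mean CPM + 1) over the 23 tissues. miR-99b-5p and miR-125a-5p were each other's closest (r = 0.98), followed for both by let-7e-5p (0.96 each), which lies between them. Without whole blood, the tissue lowest for all members, their r was 0.94. The r of miR-99b-5p with miR-99b-3p was then 0.96, and with let-7e-5p 0.91. For miR-99a-5p the first were miR-125b-5p (0.95), miR-99a-3p (0.95), miR-125b-2-3p (0.94), miR-24-3p (0.90) and let-7e-5p (0.88). Without whole blood these were 0.88, 0.94, 0.90, 0.77 and 0.71. For miR-100-5p they were the name shared with miR-99a-5p (0.95), miR-125b-5p (0.95), miR-125b-1-3p (0.91), miR-125b-2-3p (0.89) and miR-24-1-5p (0.88). These became 0.96, 0.91, 0.90, 0.80 and 0.82 without whole blood. miR-125b-5p was closest to miR-125b-2-3p (0.97), miR-100-5p (0.95) and miR-99a-5p (0.95), or 0.97, 0.91 and 0.88 without whole blood. The remaining places went to let-7a-5p;let-7e-5p, let-7e-3p and miR-99b-3p for miR-99b-5p, to let-7a-5p;let-7e-5p, let-7e-3p and miR-29a-3p for miR-125a-5p, and to let-7e-5p and miR-100-5p;miR-99a-5p for miR-125b-5p.

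Read ends were compared last, because each name gathers variants of 1 miRNA (isomiRs). In 1 of 23 flow cell lanes, which held 14 runs of 14 libraries, 69.5% of the members' reads began 1 base before the usual start, against 0.06% to 0.11% in the other 22. That lane moved the lengths, so the mean lengths and tests below leave it out unless stated, a choice made after seeing the data. With it, 12 of 72 tests passed (16.7%), and without it 30.

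Without that lane, the members' reads were shorter in testis in 12 of 12 tests. miR-100-5p averaged 21.02 ± 0.10 bases in testis, 21.60 in gut and 21.61 in liver, and miR-125b-5p 21.25 in testis, 21.68 in gut and 21.84 in liver (exact permutation test, adjusted p between 0.001998 and 0.02116 over the 12). Of the reads of miR-100-5p, 29.6% were 22 bases long in testis, against 49.2% in jejunum and 46.8% in liver, and 25.3% were 20 bases long, against 9.09% and 9.23%. These percents include that lane, which held testis reads. With the lane, miR-100-5p remained shorter in testis than in gut and liver (exact permutation test, adjusted p = 0.02398 for each) and so did miR-125b-5p (0.00959 and 0.005994), while the other 8 testis tests of length did not pass. The reads of 8 let-7 miRNAs were shorter in testis too, by 0.13 to 0.38 bases than in gut and by 0.20 to 0.56 than in liver. RNA integrity numbers were 7.5 to 7.8 in testis and 7.4 to 8.4 in liver, and testis had the shallowest libraries, whose part in this was not tested.

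Brain showed 4 differences in length in 12 tests and ovary 5. The percent of reads with the usual 5-prime start was tested in the same way. In testis 5 of 12 such tests passed, all lower, in brain 3 of 12, all higher, and in ovary 1 of 12, lower. Within the brain, miR-125a-5p was shorter in cerebellum (22.20 ± 0.03 bases) than in cerebrum (22.66) and brainstem (22.67), and its 24-base reads made up 12.3% there against 30.1% and 30.5%, given here with no test. The percents of 24-base reads include the lane with the added base, which held reads of cerebrum and brainstem.

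**Figure D5:**
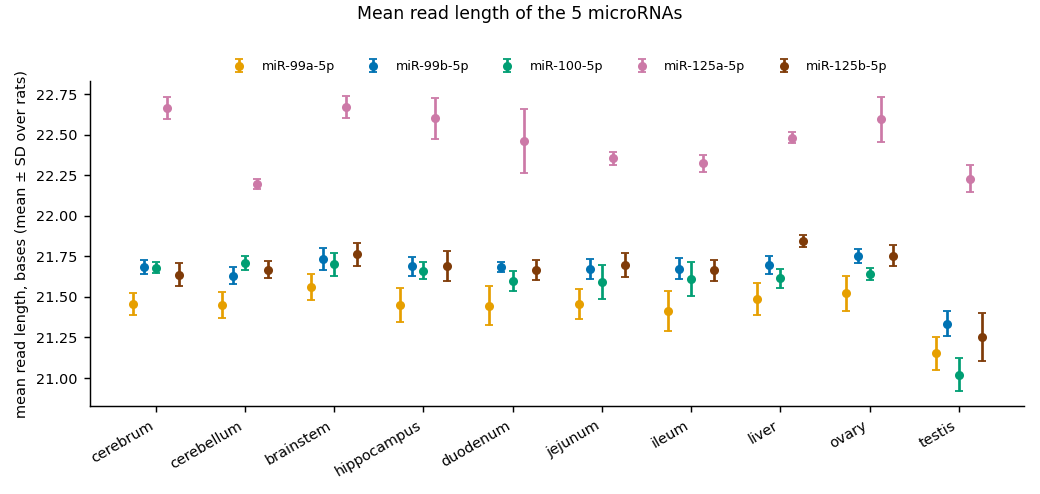
Mean read length of each miRNA by tissue, in bases (mean ± SD over libraries, without the lane with the added base). Testis has the shortest reads of miR-100-5p, at 21.02 bases, and cerebellum has shorter reads of miR-125a-5p than cerebrum.

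Females and males were compared in each of the 19 tissues with both. Of 95 tests of members 0 were higher and 4 lower in females (edgeR quasi-likelihood test), where 0.741% of all tests were called higher and 0.751% lower. The 4 were all in whole blood, where 3.12% of names were called lower: miR-100-5p (-2.96), miR-99a-5p (-1.98), miR-125b-5p (-1.92) and miR-125a-5p (-1.31). They rested on 1 library. In the male rat 6, whole blood held 53.0 CPM of miR-100-5p, against at most 2.2 in the other 9 rats, and 148 CPM of miR-125a-5p, against at most 19.1. Without rat 6 none of the 5 members was called in whole blood (differences -0.55 to -1.09). With the first flow cell alone, where that library held 5.2 CPM of miR-100-5p, against 59.7 on its other flow cells, there was no call either. miR-143-3p, a smooth muscle miRNA, stood at 289 CPM in that library on the first flow cell and at 3056 on the others, whose part in this was not tested. In whole blood of rat 10, miR-143-3p stood at 2800 CPM on the first flow cell and at 503 on the others, and in rat 8 at 1413 and 297. With these, miR-100-5p stood at 1.43 and 0.47 CPM in rat 10 and at 4.12 and 1.95 in rat 8.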

How the data were processed

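Small RNA was extracted with a miRNeasy kit, made into TruSeq small RNA libraries and sequenced on a HiSeq 2000, and the labels give a run of single-end reads for each library and flow cell. The authors trimmed adapters with cutadapt 1.4.1, dropped very short reads, and quantified the rest with the miRDeep2 quantifier against miRBase, first rat and then mouse, human and C. elegans. The deposited values are whole-number counts per run for each miRNA name and for each sequence (isomiR) under a name, not normalized. Reads that could not be given to 1 miRNA stand under a composite name.

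Of 458 runs, 14 were set aside because their library had already been read in that lane. The remaining 444 were summed to 215 libraries, and the dorsal root ganglion libraries to 2 pools, which gave 207 units. Levels, count fits and isomiR measures used the 5 single names, and the shares of the loci also took in the composite names with 1 member. Counts were tested with edgeR 4.0.16 in R 4.3.3 (glmQLFit and glmQLFTest, upper quartile scaling, filterByExpr, tissue as the only term, Benjamini-Hochberg over all names tested, threshold 0.05), and with 1 term per tissue and sex for the sexes. Shares needed at least 20 counts and isomiR measures at least 100, and were tested by exact permutation in numpy 2.4.6. The permutation tests were compared with those of scipy 1.17.1 on made-up values. The count fit was tested on simulated counts with 200 changed names, and the placing of read starts and the share tests on other made-up data. In the simulated counts only liver differed from a profile shared by all tissues. They cannot show how the choice of scaling affects the comparisons above. The depth per library, 376401 to 17725805 counts, sets the precision. At the median of 6.5 counts of miR-100-5p in whole blood, a level is only roughly known, and the reads carry no molecular identifiers.

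Same-numbered samples are the same rat. Deviations from the tissue means correlated with a median r of 0.02 between 2 tissues of a rat (2000 pairs) and of -0.01 between tissues of unlike rats (18025 pairs). Alternatives were TMM scaling, DESeq2 1.42.0, no filter, other choices of runs and flow cells, gut with both parts of the stomach, libraries or rats left out, and rat as a block. Leaving out the lane with an added base, and counting the name shared by miR-99a-5p and miR-100-5p as miR-100-5p, were chosen after seeing the data. The text names the 5 members, the listed cluster partners, other let-7, 3-prime arms, other miR-125 seed and miR-10, and for each member the 5 names most like it in pattern. The members and lists were chosen with earlier results of these data known. miR-9-5p (a marker) and miR-670-5p (a list) had no row under those names. Sequences and positions are from the deposited isomiR names and RefSeq GRCr8. A mature entry of miR-99a-5p was not used here. Figures were drawn with matplotlib 3.10.9.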

Additional observations from a re-analysis of the deposited data

Results flagged for a closer look

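In 34 of 219 groups of libraries tested, 1 library stood apart from the others of its tissue by Dixon's test at the 95% level, where chance gives about 1 in 20. They came from 17 libraries of 15 tissues, and 10 of the 34 from libraries whose profile was closer to another tissue.

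Adrenal of rat 8, whose profile was closest to jejunum, stood apart in 7 values. It held 474.8 CPM of miR-100-5p (other adrenals 222 to 354), 1979 CPM of miR-125a-5p (6617 to 7972) and 1802 CPM of miR-99b-5p (8752 to 12892). Its shares were 17.78% for miR-100-5p, 14.75% for miR-99a-5p and 67.47% for miR-99b-5p, and 66.52% for miR-125a-5p in its family.

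Whole blood of rat 6 also stood apart in 7, with 23.95 CPM of miR-99a-5p, 134.7 of miR-99b-5p, 52.98 of miR-100-5p, 147.8 of miR-125a-5p and 73.12 of miR-125b-5p, all above the other 9 rats. Its share of miR-100-5p was 25.04% and that of miR-99b-5p 63.64%.

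Duodenum of rat 11, whose profile was closest to adrenal, had the lowest share of miR-100-5p (3.212%) and the highest of miR-99b-5p (93.2%) in its tissue. Hippocampus of rat 6, closest to duodenum, had the highest share of miR-125b-1-3p (21.99%).

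The other libraries were in place. Kidney of rat 6 had the most miR-100-5p (653.5 CPM), miR-125b-5p (1803 CPM) and miR-99b-5p (9636 CPM) of its tissue. Ovary of rat 9 had a miR-100-5p share of 22.49% (others 13.5% to 15.3%) and a miR-99b-5p share of 56.24%. Brainstem of rat 9 had a miR-100-5p share of 18.97% (others 24.8% to 28.8%) and a miR-99b-5p share of 71.06%, and brainstem of rat 8 had 14090 CPM of miR-99b-5p. High levels were also those of miR-100-5p in glandular stomach of rat 7 (681.7 CPM) and pancreas of rat 10 (343.2 CPM), of miR-125a-5p in liver of rat 9 (2355 CPM), of miR-125b-5p in soleus of rat 10 (3100 CPM) and of miR-99a-5p in biceps femoris of rat 2 (950.7 CPM). Low shares of miR-100-5p were those of ileum of rat 4 (15.2%) and liver of rat 5 (5.341%). Non-glandular stomach of rat 4 had a miR-99b-5p share of 78.04%, and cerebellum of rat 11 a miR-125b-1-3p share of 6.744%.

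The difference in shares between brain and liver differed between the sexes for 3 measures of 12 tested (exact permutation of sex, two-sided, 5 rats against 5, p = 0.007937, the smallest it can give, adjusted p = 0.03175). The share of miR-99a-5p in brain minus that in liver was -18.66 points in females and -26.83 in males (female minus male 8.166). For miR-99b-5p brain exceeded liver by 10.09 points in females and 16.5 in males (-6.408), and for miR-125a-5p by 5.437 and 12.02 points (-6.58). In liver itself the share of miR-99a-5p was 27.65% ± 4.38 in females and 36.96% ± 2.06 in males, and the ranges did not overlap (22.4% to 32.7% and 34.2% to 39.9%). Its liver level was not called between the sexes (female minus male -0.78 ± 0.31, edgeR quasi-likelihood test, adjusted p = 0.7473). In brain too the female and male ranges lay apart for miR-99b-5p (72.68% to 75.71% and 71.02% to 72.52%) and miR-100-5p (15.12% to 17.63% and 17.68% to 18.15%). They overlapped for miR-99a-5p and miR-125a-5p. Liver RNA was extracted again in 4 of 5 females and 1 of 5 males. The female whose RNA was not extracted again had a miR-99a-5p share of 29.9%, and the male whose RNA was extracted again 36.6%. Whether extraction has a part in the difference in liver was not tested.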

How the results depend on the processing

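Over the alternatives, single values stayed on the same side of the threshold 2402 times, 29 of them with another sign where neither value was called, fell short of it 88 times, came to pass it 13 times and changed sign 12 times where at least 1 value was called. Counts of calls stayed within 1.5 times in 456 cases and moved in 27, and all 22 stayed so without the libraries out of place. Unless a value is given, the cause of a move was not tested. With rat as a block, against the same fit without it, 60 of 60 calls against gut, liver and blood (53 called) and 108 of 110 of each tissue against the rest were the same.

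Against the 1 member called lower in nervous tissue than in liver, 0 were with TMM, DESeq2, no filter, the first flow cell only or either dorsal root ganglion pool left out. miR-99a-5p changed sign there, to 0.5592 with TMM, 0.043 with the first flow cell and 0.9893 with DESeq2. Testis against liver gave 2 members higher with TMM and 4 with DESeq2, where 1 was, and 0 lower with TMM, DESeq2 and the first flow cell, where 1 was. miR-99b-5p came to 0.83 with TMM and, with DESeq2, miR-99a-5p came to 0.3634, miR-99b-5p to 1.803, miR-125a-5p to 1.418 and miR-125b-5p to 1.272. With both parts of the stomach in gut, 3 members were higher in ovary where 5 were, 1 in testis where 2 were, and 2 lower in testis where 0 were. There miR-99a-5p came to -0.09326, and its share in brain minus gut to -0.03731. Testis against gut also gave 1 higher with no filter and without either dorsal root ganglion pool. With the first flow cell only, 0 members were lower in females where 4 were (whole blood miR-100-5p 0.261 and miR-125a-5p 0.3318) and 2 tests of the miR-125b 3-prime arms passed where 4 did. Of the isomiR tests, 30 passed without the lane with the added base and 12 with it.

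With each rat left out in turn, the calls of members ranged from 1 to 5 lower in females (1 without rat 6, 0 of it in whole blood), 0 to 1 lower in nervous tissue than in liver (0 without rats 3, 6 or 11), 3 to 5 higher in ovary than in gut (3 without rat 9), 1 to 2 higher in testis than in gut (1 without rat 5) and 4 to 5 higher in testis than in gut, liver and blood. From 29 to 33 share tests, 8 to 19 isomiR tests (19 without rat 5), and 41 to 55 higher and 27 to 29 lower calls of a tissue against the rest passed. The other counts did not move. Adding composite names with a precursor gave no value, because 0 member names hold one. In whole blood a count near 6.5 per library limits what can be told of miR-100-5p.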
